A study of Mus musculus with 4 samples.

Results

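The barcodes described here are shallow droplet barcodes that carry messenger RNA of Sertoli cell genes, from a testis of a Znhit1 knockout mouse at postnatal day 35. A rule chose them from measured values. A barcode had to hold from 1000 to under 3000 unique molecular identifiers (UMIs, each standing for 1 captured RNA molecule), at least 500 genes and at most 10% of its UMIs from mitochondrial (mt-) genes. The summed UMIs of Cst9, Cst12, Defb19, Aard and Clu had to reach 0.5% of its UMIs, and those of the germ cell genes Ddx4 and Dazl together could not pass 3. The rule found 717 barcodes of 1897 that passed the limits on depth, genes and mitochondrial share (37.8%, Clopper-Pearson 95% interval 35.6 to 40.0) and of 15306 in the library. They are called shallow Sertoli-marker barcodes below. They were set against the other 1180 of these (other shallow barcodes), and against 156 barcodes of 3000 or more UMIs that met the same marker and germ limits (deep Sertoli-marker barcodes). A further set, 3023 barcodes of under 1000 UMIs with at most 10% mitochondrial UMIs and no condition on any marker, was added after the data had been seen.

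The study profiled testis cells with a droplet 3' kit in 4 libraries of 1 sample each, which were Znhit1_KO and CTRL at day 16 and Znhit1_KO and CTRL at day 35. ZNHIT1 belongs to a remodelling complex that loads the histone variant H2A.Z. Neither a Cre line nor the cells that lost Znhit1 are named in the labels. Only the UMI counts of the Znhit1_KO library of day 35 were used, so no value here compares genotypes or ages, and with 1 library there is no replicate and no test. Intervals cover counting error only, at the 95% level, and a level is the UMIs of a gene divided by those of all summed barcodes, scaled to 1000000 (CPM).

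Sertoli cells are the somatic cells of the seminiferous tubule that surround and nurse germ cells. They seal the tubule by junctions with each other, the blood-testis barrier, they answer follicle-stimulating hormone and androgen, and they secrete transport proteins, protease inhibitors and defensins. Meiotic germ cells lie against them inside the tubule, while Leydig cells, which make androgen, and macrophages lie outside it. A barcode labels whatever RNA 1 droplet captured, be it from an intact cell, a fragment or the surrounding liquid, and which of these the barcodes held was not tested.

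The shallow Sertoli-marker barcodes had a median of 1266 UMIs (1000 to 2995) and 861 genes, against 2030 UMIs in other shallow barcodes, 8304 UMIs in deep Sertoli-marker barcodes and 697 UMIs in barcodes of under 1000. They thus lay at the shallow end of their own range. Of the kept barcodes of 1000 to under 1250 UMIs, 348 of 548 (63.5%) met the rule, and of those of 2000 to under 3000 UMIs, 52 of 651 (7.99%) did. A marker share of 0.5% was reached by 79.2% of the barcodes of under 1000 UMIs, on which the rule set no marker condition, and by 195 of 6224 kept barcodes of 3000 or more UMIs (3.13%). Thinned to 1000 UMIs each, the shallow Sertoli-marker barcodes held a median of 709 genes, against 677 in other shallow barcodes and 738 in deep Sertoli-marker barcodes.

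**Figure D1:**
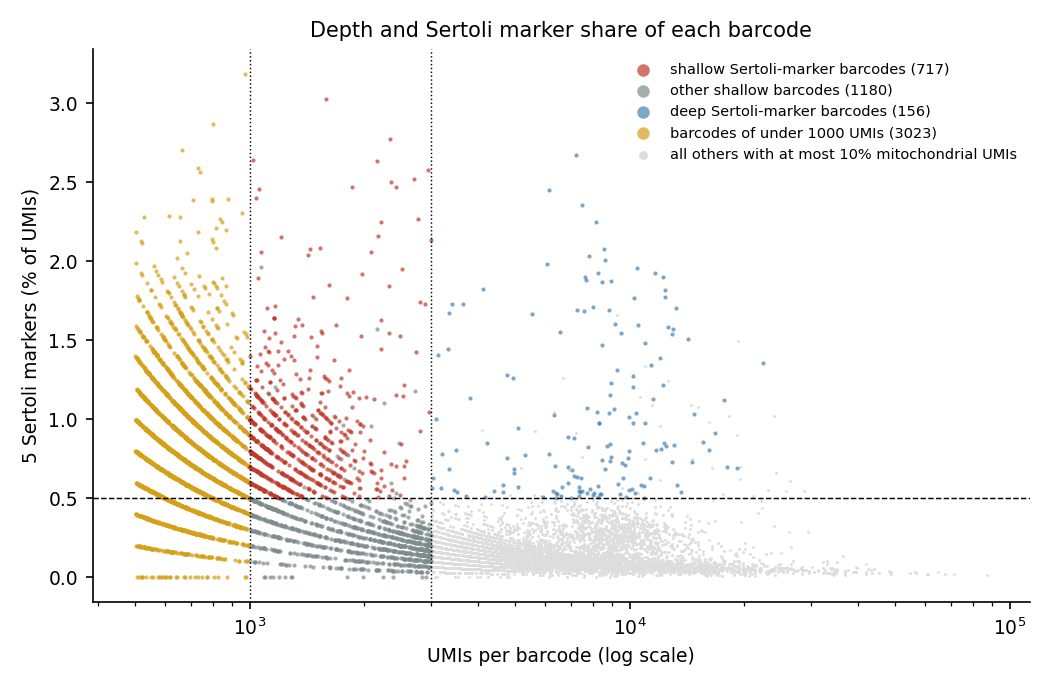
Each point is 1 barcode with at most 10% mitochondrial UMIs, placed by its UMIs (log scale) and by the share of them from Cst9, Cst12, Defb19, Aard and Clu (%). Dotted lines mark 1000 and 3000 UMIs and the dashed line marks 0.5%; the 717 shallow Sertoli-marker barcodes continue the cloud of barcodes of under 1000 UMIs, while the 156 deep ones spread from 3020 to 22385 UMIs.

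Barcodes just inside and just outside each limit all carried other Sertoli markers, with the widest difference at the upper depth limit, on few barcodes. The 120 barcodes with a marker share of 0.5% to 0.6% had 4769 CPM of other Sertoli markers, against 3771 CPM in the 141 barcodes with a share of 0.4% to 0.5%. At the lower depth limit, the 178 barcodes of 1000 to under 1100 UMIs had 6072 CPM of them, against 5602 CPM in the 245 barcodes of 900 to under 1000 UMIs. At the upper limit, the 15 barcodes of 2500 to under 3000 UMIs had 8780 CPM, against 5792 CPM in the 12 barcodes of 3000 to under 3500 UMIs. Barcodes with 3 Ddx4 and Dazl UMIs numbered 61, and those with 4 numbered 23, with 5948 and 5797 CPM of other Sertoli markers. Across the mitochondrial limit, 233 barcodes at 9% to 10% had 6268 CPM and 187 barcodes at 10% to 11% had 6258 CPM.

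Of the 717 barcodes, 12 had a barcode sequence also listed in another library of the study. These were 8 in CTRL at day 35, 3 in Znhit1_KO at day 16 and 1 in CTRL at day 16. Any pair of whole libraries, of 13734 to 15306 barcodes each, shared 45 to 81 barcodes. The 12 are counted over any other library and within 717 barcodes, so these counts are on unlike bases. Scrublet called 4 of the 717 doublets, among 265 of 8121 kept barcodes (3.26%), and these were retained.

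The genes that the rule used are given as a description. All 5 are annotated as protein-coding genes on GRCm38. Cst9 (chromosome 2, 148835147 to 148838738) and Cst12 (chromosome 2, 148789361 to 148793546) encode cystatins, a family of protease inhibitors. Defb19 (chromosome 2, 152576086 to 152580312) encodes a beta-defensin, Clu (chromosome 14, 65968483 to 65981547) the secreted chaperone clusterin, and Aard (chromosome 15, 52040107 to 52045722) a small alanine- and arginine-rich protein. Together they made up 0.929% of the UMIs of shallow Sertoli-marker barcodes (0.910 to 0.948), against 0.248% in other shallow barcodes, 1.06% in deep Sertoli-marker barcodes (1.04 to 1.07) and 0.808% in barcodes of under 1000 UMIs. The share per barcode had a median of 0.812% and ran from 0.501% to 3.02%, and all 5 genes had a UMI in 346 of the 717 (48.3%).

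The proportions among the 5 genes differed between shallow and deep Sertoli-marker barcodes. Cst9 had 1613 CPM in shallow Sertoli-marker barcodes, against 1031 CPM in deep ones and 1520 CPM in barcodes of under 1000 UMIs. Clu had 1539 CPM in shallow Sertoli-marker barcodes, against 3029 CPM in deep ones and 1293 CPM in barcodes of under 1000 UMIs. Of the UMIs of the 5 genes, Defb19 took 32.1%, Cst9 17.4% and Clu 16.6% in shallow Sertoli-marker barcodes. In deep ones these shares were 24.2%, 9.78% and 28.7%, and in barcodes of under 1000 UMIs 33.4%, 18.8% and 16.01%. For each of these genes the proportion in shallow Sertoli-marker barcodes lay nearer to that of barcodes of under 1000 UMIs than to that of deep ones.

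Sertoli genes that the rule did not use followed the same order of classes as the summed genes of the rule. The list of 26 other Sertoli markers had 6309 CPM in shallow Sertoli-marker barcodes (6153 to 6467), against 8915 CPM in deep ones (8756 to 9076), 6019 CPM in barcodes of under 1000 UMIs (5916 to 6124) and 2487 CPM in other shallow barcodes (2424 to 2551). Over deep Sertoli-marker barcodes, 9 of the 25 measured markers were at least 2-fold lower and none was higher by as much, with a median log2 ratio of -0.92. Genes with 20 or more UMIs over both classes numbered 10365, of which 14.8% were lower by that much and 13.7% higher, with a median log2 ratio of -0.10. Over other shallow barcodes, 19 of 25 were at least 2-fold higher, where 6.49% of all 11903 genes were, and 11.0% were lower by as much. Because those barcodes were separated by the Sertoli marker share itself, this contrast is not independent of the rule. Over barcodes of under 1000 UMIs, all 25 lay within 2-fold, where 1.81% of 11340 genes were higher by 2-fold or more and 1.90% lower.

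**Figure D2:**
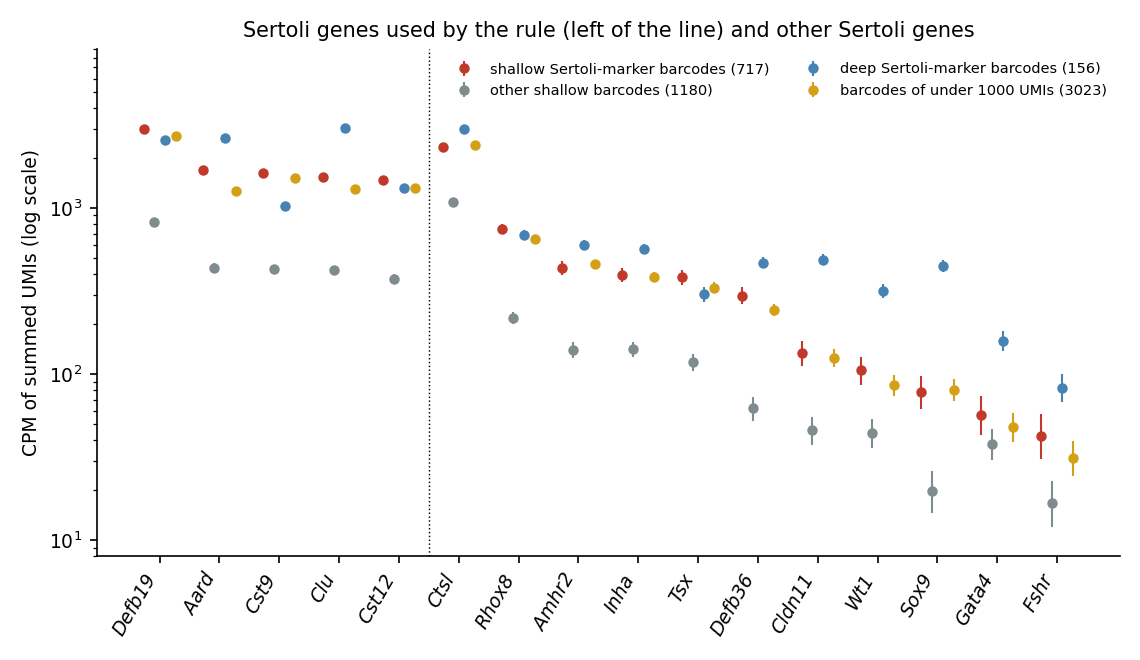
Level in CPM of summed UMIs (log scale) of the 5 genes used by the rule, left of the dotted line, and of 11 other Sertoli genes, with exact Poisson 95% intervals, in 4 classes of barcodes. Shallow Sertoli-marker barcodes and barcodes of under 1000 UMIs lie close for each gene, while Sox9, with 77.7 CPM in the first and 448 CPM in deep Sertoli-marker barcodes, and Cldn11, Wt1 and Gata4 stand higher in deep ones.

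Several transcription factors were far lower than in deep barcodes. Sox9, which directs Sertoli cell identity, had 77 UMIs and 77.7 CPM in shallow Sertoli-marker barcodes (61.4 to 97.2), against 602 UMIs and 448 CPM in deep ones (413 to 485), a level 5.76-fold lower (4.54 to 7.40). Its level in barcodes of under 1000 UMIs was 80.1 CPM. Wt1, needed to maintain Sertoli cells, had 105 CPM in shallow Sertoli-marker barcodes, against 315 CPM in deep ones, and Gata4 had 56.5 CPM against 158 CPM. The homeobox gene Rhox8 did not share this gap, with 744 CPM in shallow Sertoli-marker barcodes (691 to 800) and 689 CPM in deep ones (645 to 735). In all, 5 of the 12 listed Sertoli transcription factors were at least 2-fold lower than in deep barcodes, and 7 lay within 2-fold, where 14.8% of all genes were lower and 71.6% lay within 2-fold.

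Most hormone genes lay within 2-fold of deep barcodes. Fshr, the receptor of follicle-stimulating hormone, had 42 UMIs and 42.4 CPM in shallow Sertoli-marker barcodes (30.6 to 57.3), against 82.6 CPM in deep ones (68.0 to 99.5). Inha, the inhibin alpha subunit, had 395 CPM against 564 CPM, and Amhr2, the receptor of anti-Mullerian hormone, had 434 CPM against 598 CPM. Ctsl, a lysosomal protease that Sertoli cells secrete, had 2331 CPM in shallow Sertoli-marker barcodes, 2986 CPM in deep ones and 2386 CPM in barcodes of under 1000 UMIs. Defb36, another beta-defensin, had 296 CPM in shallow Sertoli-marker barcodes, 467 CPM in deep ones and 62.0 CPM in other shallow barcodes. Of 7 measured genes of hormone signalling, 1 was at least 2-fold lower than in deep barcodes, Inhbb, an inhibin beta subunit, which is near the 14.8% of all genes.

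Junction, retinoid and niche genes were lower than in deep barcodes. The list of 20 blood-testis barrier genes had 1553 CPM in shallow Sertoli-marker barcodes (1476 to 1632), against 3214 CPM in deep ones (3119 to 3311) and 1395 CPM in barcodes of under 1000 UMIs. Of 19 measured, 10 were at least 2-fold lower than in deep barcodes, 2 (Cldn5 and Nectin3) were higher by as much and 7 lay within 2-fold, where 14.8% of all genes were lower and 13.7% higher. Against the 32 deep barcodes of under 6000 UMIs alone, the median log2 ratio of the list was 0.04 in place of -1.11. Cldn11, the claudin of the barrier, had 133 CPM in shallow Sertoli-marker barcodes, against 486 CPM in deep ones. Of 8 measured genes of retinoid metabolism, 5 were at least 2-fold lower than in deep barcodes, beside the same 14.8%. Kitl, the ligand of the KIT receptor on spermatogonia, had 117 CPM in shallow Sertoli-marker barcodes, against 361 CPM in deep ones, and 3 of 5 measured niche ligands were at least 2-fold lower, beside 14.8% of all genes. Ldhb, a lactate dehydrogenase subunit, had 581 CPM against 1071 CPM, while 10 of 11 measured glycolysis genes lay within 2-fold. Of 15 phagocytosis and lysosome genes 5 were at least 2-fold lower, as were 5 of 13 measured secreted proteins and 2 of 7 measured cytoskeleton genes, and none of these was higher by as much. Among all genes 14.8% were lower, so the cytoskeleton count is near that share. The deep class also held 29 of 156 barcodes with 0.5% or more Leydig markers. Retinoid genes had 4143 CPM in deep Leydig barcodes, against 2462 CPM in deep Sertoli-marker barcodes, and niche ligands had 852 CPM against 646 CPM. Blood-testis barrier genes went the other way, with 972 CPM in deep Leydig barcodes against 3214 CPM. How much of each gap came from Leydig RNA in the deep class was not tested.

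Markers of other cell types were present in the same barcodes. Early prophase markers had the highest median log2 ratio over deep barcodes of the 27 lists, 3.10. The 8 early prophase markers had 2375 CPM in shallow Sertoli-marker barcodes (2280 to 2473), against 288 CPM in deep ones (260 to 318), 2674 CPM in barcodes of under 1000 UMIs (2605 to 2744) and 2820 CPM in other shallow barcodes (2753 to 2888). All 8 were at least 2-fold higher than in deep barcodes, where 13.7% of all genes were. Sycp3, a protein of the axis of meiotic chromosomes, had 694 UMIs and 701 CPM in shallow Sertoli-marker barcodes (650 to 755), against 102 UMIs and 75.9 CPM in deep ones (61.9 to 92.1), a level 9.23-fold higher (7.49 to 11.5). The 6 measured pachytene markers were all at least 2-fold higher, among them the germ cell lactate dehydrogenase gene Ldhc, with 395 CPM against 51.3 CPM. Of 8 measured spermatogonium markers, 5 were at least 2-fold higher and 1 was lower by as much, where 13.7% of all genes were higher and 14.8% lower.

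This gap is not independent of the rule, because at most 3 Ddx4 and Dazl UMIs is a tighter share of a deep barcode than of a shallow one. Without that limit in either class, early prophase markers had a median log2 ratio of 1.11 over 195 deep barcodes, in place of 3.10 over 156. Those 195 deep barcodes had 1238 CPM of early prophase markers. They held 3.27 Ddx4 and Dazl UMIs and 11.95 early prophase UMIs per barcode, against 0.789 and 2.48 UMIs in the 156. The 699 barcodes of 3000 or more UMIs with Leydig markers, chosen without that limit, had 458 CPM of early prophase markers. How much of the gap came from the limit was not tested. Counted per barcode, early prophase markers had 3.28 UMIs in shallow Sertoli-marker barcodes, 2.48 UMIs in deep ones and 1.90 UMIs in barcodes of under 1000. Classes of 3000 or more UMIs chosen by other markers had similar numbers, with 3.92 UMIs in 244 barcodes with macrophage markers and 4.402 UMIs in 699 barcodes with Leydig markers, while 4119 barcodes with germ markers had 54.6 UMIs.

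Sertoli markers outside the rule had 8.72 UMIs per shallow Sertoli-marker barcode, against 76.8 UMIs per deep one. Deep barcodes with germ markers, at a median of 6185 UMIs, held 8.60 UMIs of the same list, those with macrophage markers, at 3907 UMIs, held 7.90 UMIs, and those with Leydig markers, at 9424 UMIs, held 23.9 UMIs. The number per shallow Sertoli-marker barcode was thus close to those per deep germ and macrophage barcode, and below that per deep Leydig barcode. For the 5 genes of the rule the counts were 12.8 UMIs per shallow Sertoli-marker barcode, 8.05 UMIs per deep germ barcode, 5.32 UMIs per deep macrophage barcode and 26.5 UMIs per deep Leydig barcode. Shallow Sertoli-marker barcodes were chosen for a high share of these genes, and the deep germ, macrophage and Leydig barcodes for a low one. The counts are therefore bounded by the choice of classes and by depth, and no conclusion is drawn from their order.

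Leydig markers were also spread over the barcodes. The list of 9 had 2970 CPM in shallow Sertoli-marker barcodes (2864 to 3080), against 5792 CPM in deep ones, 2904 CPM in barcodes of under 1000 UMIs (2833 to 2977) and 1220 CPM in other shallow barcodes. Cyp17a1, an enzyme of androgen synthesis, had 639 CPM in shallow Sertoli-marker barcodes, 1025 CPM in deep ones and 630 CPM in barcodes of under 1000 UMIs. The deep level came from few barcodes. A Leydig marker share of 0.5% or more was found in 8 of 717 shallow Sertoli-marker barcodes (1.12%) and in 29 of 156 deep ones (18.6%). In barcodes thinned to 1000 UMIs, the variance of the Leydig UMIs divided by their mean was 2.69 in shallow Sertoli-marker barcodes, 15.7 in deep ones and 2.52 in other shallow barcodes. For early prophase markers this ratio was 1.39 in shallow Sertoli-marker barcodes, 1.87 in deep ones and 4.15 in other shallow barcodes. A ratio of 1 is that of Poisson counts, and the limit on Ddx4 and Dazl also narrows the values of shallow and deep Sertoli-marker barcodes.

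**Figure D3:**
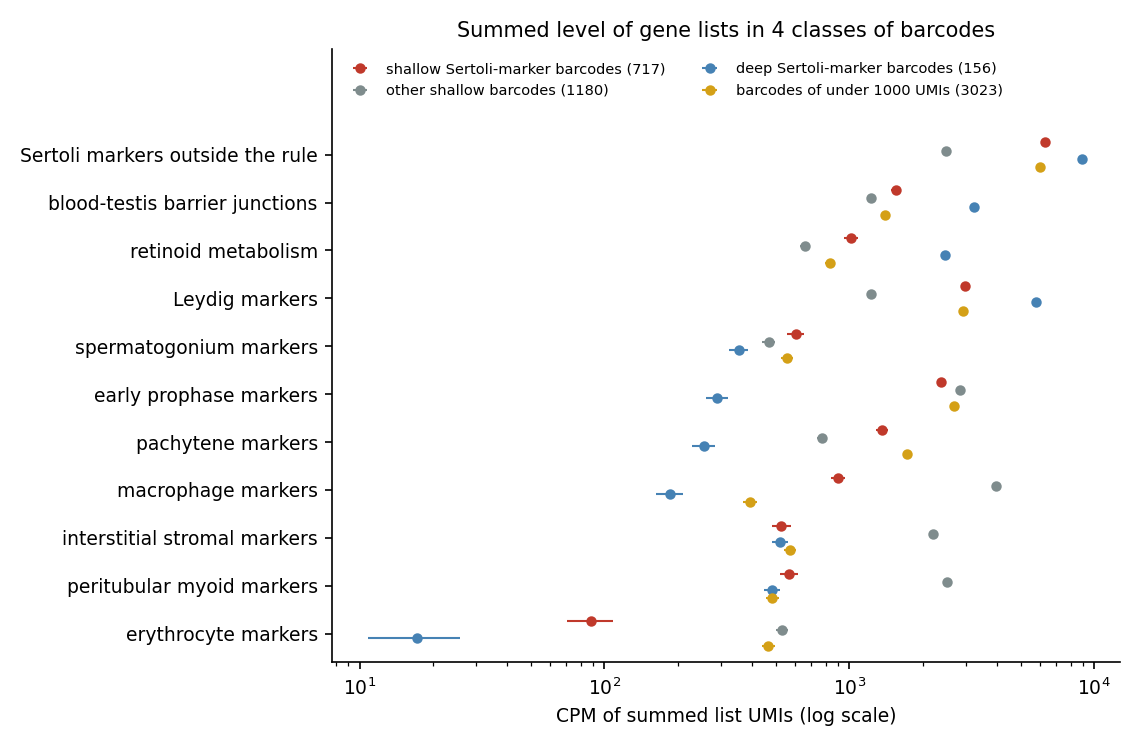
Summed level of 11 gene lists in CPM (log scale) with exact Poisson 95% intervals, in 4 classes of barcodes. In shallow Sertoli-marker barcodes, Sertoli, Leydig and meiotic lists stand close to their levels in barcodes of under 1000 UMIs, and early prophase markers lie far from the 288 CPM of deep Sertoli-marker barcodes.

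Most shallow Sertoli-marker barcodes held all of these at once. After thinning to 1000 UMIs, 616 of 717 (85.9%, 83.2 to 88.4) had a UMI of a Sertoli marker outside the rule, of a Leydig marker and of a meiotic marker. The same was so in 27.6% of deep Sertoli-marker barcodes (20.7 to 35.3), in 47.6% of other shallow barcodes, in 23.7% of deep germ barcodes and in 15.98% of deep macrophage barcodes. After thinning to 500 UMIs it was so in 58.7% of shallow Sertoli-marker barcodes (55.0 to 62.3) and in 61.9% of barcodes of under 1000 UMIs (60.2 to 63.7), at unthinned medians of 1266 and 697 UMIs. Cst9 itself had a UMI in 78.1% of shallow Sertoli-marker barcodes thinned to 1000 UMIs, in 48.1% of deep ones, in 15.1% of deep germ barcodes and in 20.1% of deep macrophage barcodes, which should lack the gene. Unthinned, these shares were 85.5%, 87.2%, 65.3% and 51.2%. Cst9 is a gene of the rule, and deep germ and macrophage barcodes were chosen for a low share of those genes. The gap in Cst9 between them and the Sertoli-marker barcodes is therefore not independent of the rule. Sycp3, which somatic cells should lack, had a UMI in 50.3% of shallow Sertoli-marker barcodes thinned to 1000 UMIs, in 9.62% of deep ones and in 13.5% of deep macrophage barcodes. Unthinned, these shares were 58.9%, 41.7% and 38.5%. The gaps to deep Sertoli-marker barcodes in Sycp3 and in holding all of these markers are not independent of the rule either. Its limit on Ddx4 and Dazl is tighter for deep barcodes, which had 288 CPM of early prophase markers with it and 1238 CPM without it. The choice of deep germ and macrophage barcodes also bears on their Sertoli markers. Deep Sertoli-marker barcodes without the limit were not thinned, and how much of these gaps came from the rule was not tested.

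Macrophage, stromal and peritubular myoid lists were lower than in other shallow barcodes. Macrophage markers had 901 CPM in shallow Sertoli-marker barcodes (842 to 962), against 185 CPM in deep ones, 393 CPM in barcodes of under 1000 UMIs and 3970 CPM in other shallow barcodes. Against the 32 deep barcodes of under 6000 UMIs alone, the median log2 ratio of this list was -0.26, in place of 1.83 against all 156. Few barcodes carried the macrophage level, since the 36 with the most of these UMIs held 64.9% of them and 291 of the 717 had any. Stromal markers had 528 CPM in shallow Sertoli-marker barcodes, against 523 CPM in deep ones, 574 CPM in barcodes of under 1000 UMIs and 2198 CPM in other shallow barcodes. Peritubular myoid markers had 569 CPM in shallow Sertoli-marker barcodes, against 483 CPM in deep ones, 484 CPM in barcodes of under 1000 UMIs and 2504 CPM in other shallow barcodes. The deep levels of both lists join unlike parts. The 32 deep barcodes of under 6000 UMIs had 2387 CPM of stromal and 2371 CPM of myoid markers. In the 124 of 6000 or more these were 322 and 279 CPM. All 8 macrophage markers, all 7 stromal markers and all 7 peritubular myoid markers were at least 2-fold lower than in other shallow barcodes, where 11.0% of genes were. C1qa, a complement gene of macrophages, had 162 CPM in shallow Sertoli-marker barcodes against 858 CPM in other shallow barcodes. Dcn, the matrix proteoglycan decorin, had 225 CPM against 1122 CPM, and Acta2, smooth muscle actin, had 303 CPM against 1422 CPM. Other shallow barcodes included 183 with 0.5% or more macrophage markers and 270 with over 3 Ddx4 and Dazl UMIs, so these values also describe what that class holds. The 7 spermatid markers had 15 UMIs in all in the 717 barcodes, with Tnp1 at 0 and Prm1 at 1 UMI.

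Gene by gene, the shallow Sertoli-marker barcodes lay nearest to barcodes of under 1000 UMIs. Across 7597 genes with 20 or more UMIs in them, Pearson's r of log2(CPM + 1) was 0.972 with barcodes of under 1000 UMIs, 0.895 with other shallow barcodes and 0.765 with deep Sertoli-marker barcodes. It was 0.861 with the 195 deep barcodes that had no limit on Ddx4 and Dazl. With deep germ, Leydig and macrophage barcodes it was 0.752, 0.735 and 0.700. These are correlations across genes of 1 library, which are not independent replicates, and classes with more UMIs have less counting noise. The 7597 genes were chosen by their UMIs in shallow Sertoli-marker barcodes alone, which leaves out genes found mainly in other classes. Of the 10365 genes set against deep barcodes, 7416 (71.6%) lay within 2-fold, and of the 11340 set against barcodes of under 1000 UMIs, 10919 (96.3%) did.

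**Figure D4:**
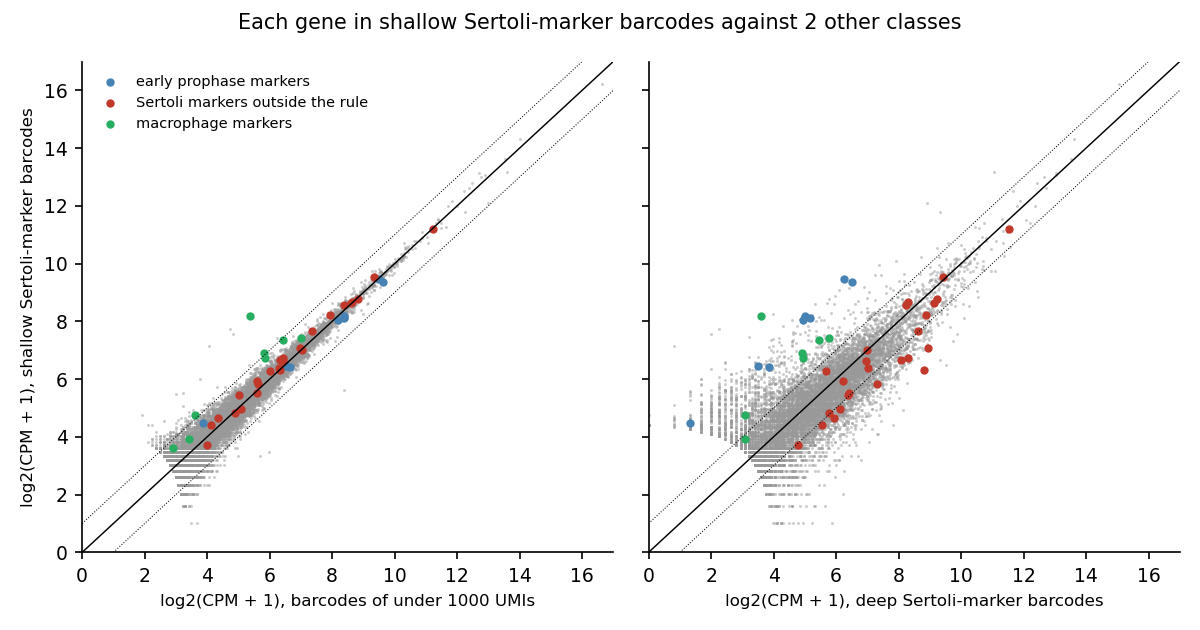
Each point is 1 gene with 20 or more UMIs over both classes, placed by log2(CPM + 1) in shallow Sertoli-marker barcodes (vertical axis) and in barcodes of under 1000 UMIs (left) or deep Sertoli-marker barcodes (right). Dotted lines mark 2-fold; 96.3% of genes lie within them on the left and 71.6% on the right, where all 8 early prophase markers lie above.

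Some genes far lower than in deep barcodes were detected in part of the deep class. Wfdc18, a whey acidic protein family gene, had 89.9 CPM in shallow Sertoli-marker barcodes, against 740 CPM in deep ones, and Sncb, which encodes beta-synuclein, had 20.2 CPM against 226 CPM. Erbb3, a receptor of neuregulins, had 1 UMI in the 717 barcodes and 78 UMIs in the 156 deep ones, a level 57.5-fold lower with a counting interval of 10.0 to 2299. Cdh19, a cadherin, had 0 UMIs and 42 UMIs, which makes its level at least 10.3-fold lower, with 3 UMIs over the class set in place of 0. A UMI of Erbb3, Hrk, Cdh19, Plxna4 or Asic2, all named by their distance from deep barcodes, was found in 4 shallow Sertoli-marker barcodes (0.558%) and in 54 deep ones (34.6%). Those 54 deep barcodes had 219 CPM of Cst9, 3832 CPM of Clu and 683 CPM of Sox9, while the other 102 had 1575 CPM of Cst9, 2491 CPM of Clu, 291 CPM of Sox9 and 7952 CPM of Leydig markers. These genes were picked for their distance between the classes, and the 54 barcodes were deeper, with a median of 9226 UMIs against 7798 UMIs, so the split is a description. Gstm6, a glutathione transferase, had 221 CPM in shallow Sertoli-marker barcodes, 807 CPM in deep ones and 52.4 CPM in other shallow barcodes.

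The 10 genes furthest above barcodes of under 1000 UMIs were H2-Ab1, H2-Aa, H2-Eb1, Cd74, Ccl4, Cxcl2, Cd52, Ccl3, Ccl5 and Il1b, and the 3 furthest below were Hbb-bs, Hba-a1 and Hba-a2. Cd74, an invariant chain of antigen presentation, had 287 UMIs and 290 CPM in shallow Sertoli-marker barcodes (257 to 325), against 87 UMIs and 40.5 CPM in barcodes of under 1000 UMIs, a level 7.15-fold higher (5.61 to 9.19). H2-Ab1, a class II major histocompatibility gene, had 139 CPM against 15.8 CPM. These came from few barcodes, since the 36 with the most UMIs of Cd74, H2-Ab1, H2-Aa and H2-Eb1 held 93.3% of them, where the 36 deepest barcodes held 9.07% of all UMIs. For early prophase markers the 36 highest barcodes held 13.8%, and 653 of the 717 had a UMI of one. Hbb-bs, a beta globin, had 48.5 CPM in shallow Sertoli-marker barcodes, against 331 CPM in barcodes of under 1000 UMIs. With a marker share of 0.3% or more in place of 0.5% this ratio turned, to 1.36-fold higher, and the median log2 ratio of the erythrocyte list was 0.82 in place of -2.47. One blood-testis barrier gene was at least 2-fold higher, Cldn5, which endothelium also expresses, with 34 UMIs and 34.3 CPM against 30 UMIs and 14.0 CPM. At a marker share of 1% or more it stood at 0.743-fold.

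Among the 717 barcodes, Sertoli and early prophase lists changed little with depth below 2000 UMIs. Barcodes of 1000 to under 1250, 1250 to under 1500 and 1500 to under 2000 UMIs had 6089, 5980 and 6297 CPM of Sertoli markers outside the rule, and 2446, 2817 and 2359 CPM of early prophase markers. The 52 barcodes of 2000 to under 3000 UMIs had 7610 CPM of those Sertoli markers (7131 to 8112) and 1391 CPM of early prophase markers (1191 to 1615). Of the deep Sertoli-marker barcodes, the 32 of 3000 to under 6000 UMIs had 6077 and 862 CPM, and the 124 of 6000 or more had 9222 and 226 CPM. At the other end, barcodes of 500 to under 750 UMIs had 6199 and 2549 CPM.

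**Figure D5:**
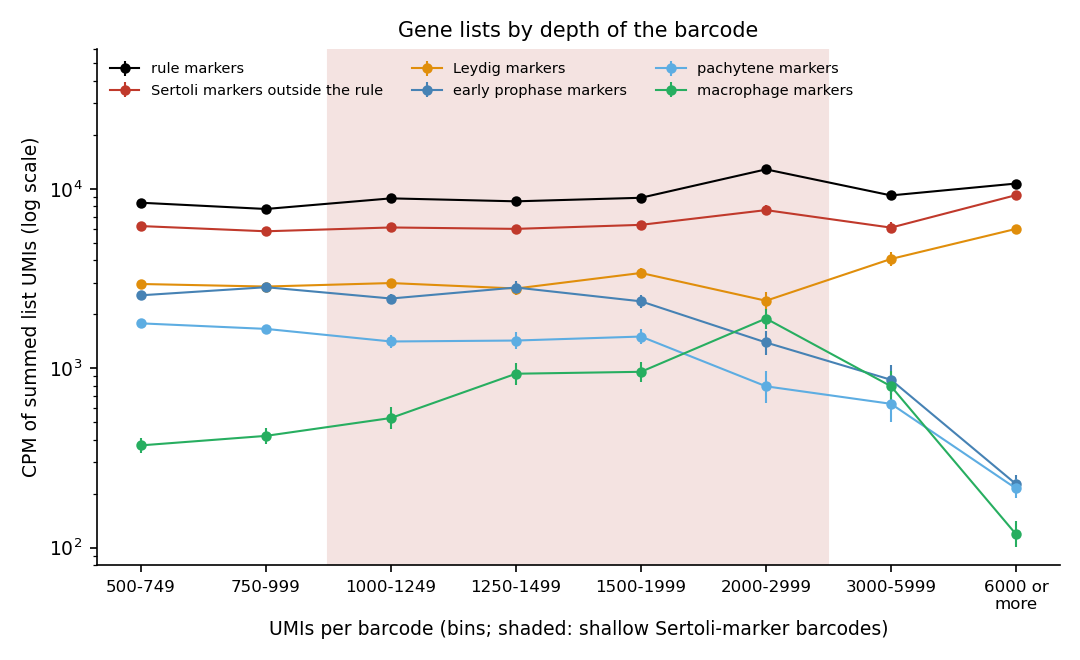
Summed level of 6 gene lists in CPM (log scale) with exact Poisson 95% intervals, by UMIs per barcode. The first 2 bins are barcodes of under 1000 UMIs with no marker condition, the shaded 4 are shallow Sertoli-marker barcodes and the last 2 are deep ones; early prophase markers stay between 2359 and 2828 CPM from 750 to under 2000 UMIs and reach 226 CPM at 6000 or more.

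With a higher marker share, Sertoli markers outside the rule stood higher at each step, with 4769, 5729, 6157 and 6573 CPM in barcodes with shares of 0.5% to 0.6%, 0.6% to 0.75%, 0.75% to 1% and 1% to 1.5%. Macrophage markers had 1732, 1513, 452 and 565 CPM in the same bins. Early prophase markers had 2189, 2321, 2755 and 2554 CPM in them. In the 50 barcodes of 1.5% or more they had 1128 CPM (918 to 1372), Leydig markers had 1782 CPM, macrophage markers 90.2 CPM and Sertoli markers outside the rule had 10590 CPM (9926 to 11290). Those 50 had a median of 1568 UMIs, and their meiotic level was still above the 288 CPM of deep barcodes.

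Measures of RNA quality moved with the classes, and their part in the values above was not tested. Mitochondrial genes gave a median of 8.32% of UMIs in shallow Sertoli-marker barcodes, 6.62% in deep ones, 6.46% in barcodes of under 1000 UMIs and 5.69% in other shallow barcodes, and 466 of the 717 lay between 7.5% and 10%. Gm42418 and AY036118, loci that take up reads of ribosomal RNA, together had 80160 CPM in shallow Sertoli-marker barcodes, against 34620 CPM in deep ones, 85400 CPM in other shallow barcodes and 111100 CPM in barcodes of under 1000 UMIs. The nuclear transcript Malat1 had 9035 CPM in shallow Sertoli-marker barcodes, 8452 CPM in deep ones, 9027 CPM in other shallow barcodes and 6618 CPM in barcodes of under 1000 UMIs. Of 14 dissociation stress genes, 8 were at least 2-fold lower than in other shallow barcodes, where 11.0% of all genes were, among them Fos, with 283 CPM against 775 CPM. Summed, the 14 had 4260 CPM in shallow Sertoli-marker barcodes and 5924 CPM in other shallow barcodes. Within the latter, the 183 with macrophage markers had 9023 CPM and the 270 with over 3 Ddx4 and Dazl UMIs had 3768 CPM. The stress values thus also describe what that class holds. Hspb1, a small heat shock protein, had 365 CPM in shallow Sertoli-marker barcodes, against 1215 CPM in deep ones.

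The targeted gene could not check the label of these barcodes. Znhit1 had 17 UMIs and 17.2 CPM in shallow Sertoli-marker barcodes (10.0 to 27.5), 17 UMIs and 12.7 CPM in deep ones (7.37 to 20.3), 26 UMIs and 12.1 CPM in barcodes of under 1000 UMIs and 26 UMIs and 10.9 CPM in other shallow barcodes. These intervals overlap. The kit reads the 3' end of a transcript, and the sources used here do not say which exons were deleted. H2afz, the main gene of H2A.Z, had 1140 CPM in shallow Sertoli-marker barcodes (1074 to 1208), against 726 CPM in deep ones (681 to 773) and 1153 CPM in barcodes of under 1000 UMIs. H2afv, the second H2A.Z gene, had 379, 275 and 419 CPM in the same order. Summed, the 14 listed genes of H2A.Z and its deposition machinery had 2399 CPM in shallow Sertoli-marker barcodes and 1611 CPM in deep ones. They had 1881 CPM in the 195 deep barcodes without the limit on Ddx4 and Dazl, and 3148 CPM in deep germ barcodes. The part of germ cell RNA and of that limit in this gap was not tested. Of the 14 genes of H2A.Z and its deposition machinery, 3 were at least 2-fold higher than in deep barcodes, none was lower by as much, where 13.7% of all genes were higher and 14.8% lower, and all lay within 2-fold of other shallow barcodes and of barcodes of under 1000 UMIs.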

How the data were processed

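Testis cells were captured with a 10x Genomics droplet 3' kit, per the labels. The authors deposited whole-number UMI counts per gene and barcode, not normalised, produced by Cell Ranger 7.1.0 as the file headers state, while STAR and mm10 are listed in the submitters' processing notes. Which barcodes counted as cells upstream was not stated in any source used here. No deposited barcode had under 500 UMIs, and the day 35 knockout library held 72459160 UMIs. For the other 3 libraries only the lists of barcodes were used. Of 32285 genes, 32235 matched an identifier of GENCODE vM21.

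UMIs were summed over the barcodes of a class and divided by the class total. Levels have exact Poisson intervals, ratios exact conditional binomial intervals and shares Clopper-Pearson intervals, which cover counting error only. Barcodes of a class share 1 library and are not replicates, so no p-value is given. Genes needed 20 UMIs over both classes, a count of 0 was set to 3 UMIs in ratios, and 2-fold marks a gene as apart. For shares, each barcode was thinned to 1000 or 500 UMIs with a fixed seed, and no barcode was left out. Free RNA was not subtracted. Doublets were called with Scrublet in scanpy 1.11.5 and kept. Deep barcodes of other types had 3000 or more UMIs, under 0.5% of the 5 Sertoli markers and over 3 Ddx4 and Dazl UMIs (germ) or 0.5% or more of Leydig or macrophage markers. Python 3.11.15, numpy 2.4.6, scipy 1.17.1, pandas 2.3.3 and matplotlib 3.10.9 were used, and the ratio step was tested on simulated data.

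The barcodes, the 27 gene lists and the comparisons were chosen with earlier results of these data known. A rule took the 10 genes furthest up and down in each comparison, the extremes and the highest member of each list, and Znhit1, H2afz and H2afv. Other list members are described as members, and many were chosen after their values were seen.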

Additional observations from a re-analysis of the deposited data

Results flagged for a closer look

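A set outside the comparisons above had Sertoli and meiotic levels close to those of the shallow Sertoli-marker barcodes. In all, 676 barcodes met each condition of the rule except the mitochondrial limit, with a median of 12.2% mitochondrial UMIs. Their share of UMIs from the 5 Sertoli markers was 0.869% (0.851 to 0.887), which the rule had set at 0.5% or more. Their level of Sertoli markers outside the rule was 6028 CPM and that of early prophase markers 2250 CPM. Pearson's r of log2(CPM + 1) with the shallow Sertoli-marker barcodes was 0.961 across the same 7597 genes, chosen by their UMIs in those barcodes.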

How the results depend on the processing

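Each class is 1 sum of UMIs from 1 library, so intervals cover counting error and not the spread between animals. No paired analysis was possible because 1 library was compared with itself. Removing Scrublet doublets moved no count of genes by over 1.5 times, nor did scaling by the median ratio, averaging per barcode, or totals without mt- genes, Gm42418 and AY036118, the last of which was added after the data had been seen.

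With at most 5% mt- UMIs, 100 barcodes met the rule; 461 genes were higher than in deep barcodes, and 354 were higher and 457 lower than in barcodes of under 1000 UMIs, with Hbb-bs 1.47-fold over other shallow barcodes. With at most 20%, 1278 barcodes met it and 2581 genes were higher than in deep ones. At a marker share of 0.3%, 2588 genes were higher than in deep barcodes, 649 lower than in other shallow ones and 652 higher than in barcodes of under 1000 UMIs. Hbb-bs then stood at 27.9-fold and 1.36-fold of the last 2, with erythrocyte medians of 5.56 and 0.82 (log2). At 1%, 199 barcodes met the rule, 539 genes were higher than in deep barcodes and 973 lower than in barcodes of under 1000 UMIs, with Fshr at 0.999-fold of other shallow barcodes and Cldn5 at 0.743-fold of barcodes of under 1000. With no Ddx4 or Dazl UMI, 272 barcodes met it; 705 genes were higher than in deep ones, and 354 higher and 618 lower than in barcodes of under 1000 UMIs. Without that limit 939 genes were higher than in deep barcodes, and 901 where only deep ones lost it.

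Without a minimum of UMIs per gene, 1441 genes were higher and 1993 lower than in other shallow barcodes, 2991 higher than in deep ones, and 778 higher and 801 lower than in barcodes of under 1000 UMIs. A minimum of 10 gave 2135 higher than in deep ones, and 476 higher and 489 lower than in barcodes of under 1000; a minimum of 50 gave 704, 32 and 29, with 430 higher and 786 lower than in other shallow ones. Thinning to 1000 UMIs left 966 genes lower than in deep barcodes. Against the 32 deep barcodes of 3000 to under 6000 UMIs 624 genes were lower, Cldn5 stood at 0.375-fold and C1qa at 0.815-fold, and median log2 ratios were 0.04 for blood-testis barrier genes and -0.26 for macrophage markers. Against those 32 barcodes, of 72 named values (such as gene ratios and list medians) 15 stayed the same, 53 moved and 4 reversed. Over deep barcodes, 42 of 69 moved with at most 5% mt- UMIs and 48 of 75 at a marker share of 0.3%. Against deep barcodes with under 0.5% Leydig markers 20 of 75 moved, and against those of 6000 or more UMIs 10 of 75. Over other shallow barcodes, 44 of 75 moved with no Ddx4 or Dazl UMI. The cause of these changes was not tested.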
